A study of Danio rerio with 33 samples.

Results

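The genes described here encode the ligands and receptors of the transforming growth factor beta (Tgf-beta) superfamily in zebrafish: the bone morphogenetic proteins (Bmp), growth and differentiation factors (Gdf), Nodal-related factors, activin and inhibin beta subunits, Tgf-beta proteins, and the receptors they bind. They were chosen by gene symbol, as every gene of the deposited table whose name starts with bmp, gdf, inhb, tgfb, tgfbr, bmpr, acvr or ndr in the family's usual form, leaving out bmp15 and gdf9. The rule found 51 of 30490 genes. They comprise 11 BMP ligands, 10 GDF ligands, 2 Nodal ligands, 3 activin and inhibin beta subunits, 4 Tgf-beta ligands, 10 type I receptors, 6 type II receptors and the coreceptor tgfbr3. The symbols also matched 4 genes that are neither ligand nor receptor. These are the metalloproteases bmp1a and bmp1b, the kinase bmp2k and the receptor-associated protein tgfbrap1.

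The study sequenced polyadenylated RNA of zebrafish embryos and gonads to examine the effects of Kctd15 in the neural crest and the sex organs. Kctd15 is a BTB-domain protein that binds the transcription factor AP-2 and limits neural crest formation in zebrafish embryos. Whole embryos were collected at the stage of 10 somites in 7 groups: wild-type embryos that were not injected; wild-type embryos injected with 5 pg of AP2, 5 pg of AP2-P59, 100 pg of kctd15, AP2 with kctd15, or AP2-P59 with kctd15 at the same amounts; and kctd15 mutant embryos. Gonads came from adults in 4 groups, namely wild-type ovary, kctd15 mutant ovary, wild-type testis and kctd15 mutant testis. Each group held 3 biological replicates, 33 libraries in all. All injected embryos were wild type, no embryos injected with a control substance were analysed here, and the strain, the mutant allele, the number of animals per sample and what sets AP2-P59 apart from AP2 are not given in the sources used here.

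A ligand dimer of this superfamily brings type I and type II receptor kinases together, and the type I receptor then phosphorylates Smad proteins, which enter the nucleus with Smad4. BMP and many GDF ligands act through Smad1, Smad5 and Smad9, while Nodal, activin and Tgf-beta ligands act through Smad2 and Smad3. In the zebrafish embryo a BMP gradient patterns the dorsoventral axis and positions the neural crest at the border of the neural plate, and in the gonads activins, inhibins and BMPs carry signals between germ cells and the somatic cells around them.

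Libraries held 15152199 to 24131756 estimated counts. Levels are given in CPM, the counts of a gene relative to its library's total, scaled by the trimmed mean of M-values (TMM) separately for the embryo libraries, the gonad libraries and the 9 wild-type libraries, so a gene has a level on an embryo, a gonad and a wild-type scale. Since CPM is not divided by transcript length, levels are compared between groups and not between genes. Ovary markers summed to 6861 to 8700 CPM in wild-type ovaries and 26.3 to 40.8 CPM in wild-type testes, and no gonad group went against its tissue label. The transcript annotated as kctd15a held 201 to 495 estimated counts in the kctd15-injected embryos and 273 to 731 with AP2 and kctd15. With AP2-P59 and kctd15 it held 0, 171 and 473. It held 0 to 34 in uninjected wild-type embryos and 121, 0 and 53 in mutant embryos. Replicate 1 of the group injected with AP2-P59 and kctd15 thus held none of it. The kctd15a gene was at 182 to 200 CPM in mutant embryos and 39.4 to 56.5 CPM in wild-type embryos, and kctd15b at 5.02 to 7.22 and 3.70 to 4.28 CPM, so neither level shows a loss in the mutant embryos. In ovaries kctd15b was at 0.306 to 1.06 CPM in mutants and 2.05 to 4.98 CPM in wild type, and in testes at 0.427 to 1.07 and 0.582 to 2.02 CPM. Which kctd15 gene is mutated is not given in the sources used here. In the mutant ovaries, replicate 3 held 7439 CPM of summed liver markers and 295.5 CPM of gut markers, against at most 239 and 2.39 CPM in the other ovaries. The main values that rest on these replicates are also given without them. In the testes the summed liver markers ran from 70.7 to 690 CPM in wild type, highest in replicate 1, and from 10.3 to 118 CPM in mutants.

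Among wild-type embryos, ovaries and testes, 6 of the BMP ligands were higher in the embryo than in either gonad, gdf3 and ndr1 were higher in the ovary than in the embryo, and the activin beta A gene inhbab and the coreceptor tgfbr3 were highest in the testis. Of the 49 genes tested on the wild-type scale, 29 differed between ovary and embryo, 6 higher in the ovary and 23 lower, at an adjusted p under 0.05 (edgeR quasi-likelihood test, Benjamini-Hochberg over all genes). Of all genes tested in that comparison 69.8% differed, 32.6% higher and 37.2% lower. Between testis and embryo 34 of the 49 differed, 9 higher in the testis and 25 lower, where 67% of all genes differed, 34.4% higher and 32.5% lower. The median log2 fold change of the family was -0.81 for ovary against embryo and -0.93 for testis against embryo, beside -0.18 and 0.07 over all genes. Both comparisons share the wild-type embryos, and tissue and age change together in them and cannot be told apart. In RNA from whole tissues, fewer cells of a type and less RNA per cell cannot be told apart either.

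The embryo was above both gonads, with both tests passed, for 17 of 49 genes, which is 34.7% beside 18.4% of all genes. Among them were bmp2a, bmp2b, bmp3, bmp4, bmp5 and bmp7a. For bmp3, which limits BMP signalling in mammals, the wild-type embryos stood at 96.6, 84.9 and 79.9 CPM on the wild-type scale, the ovaries at 0.258, 0.343 and 0.231 CPM and the testes at 5.08, 7.002 and 7.39 CPM. No libraries overlapped, and the log2 fold change was -8.25 (SE 0.30, adjusted p = 1.32e-08, edgeR) in ovary against embryo and -3.75 (adjusted p = 1.93e-07) in testis against embryo. For bmp2b, the ventralizing ligand of the early zebrafish embryo, the embryos stood at 18.7, 14.0 and 16.6 CPM, the ovaries at 0.517, 0.137 and 0.154 CPM and the testes at 1.42, 1.24 and 1.42 CPM. Its partner bmp7a was at 18.0, 30.8 and 17.2 CPM in embryos, 2.20, 1.24 and 1.70 CPM in ovaries and 0.861, 2.61 and 3.38 CPM in testes. The groups of both genes were apart in embryo against either gonad, with log2 fold changes of -5.86 and -3.59 for bmp2b and -3.68 and -3.27 for bmp7a. The gap was smaller for bmp4, another ventral BMP, at 42.9, 61.4 and 36.6 CPM in embryos, 15.3, 15.3 and 14.5 CPM in ovaries and 21.8, 33.7 and 24.5 CPM in testes. The bmp4 log2 fold changes were -1.64 (adjusted p = 0.000134, edgeR) and -0.82 (adjusted p = 0.0111). The GDF genes in this set were gdf6a, gdf6b, gdf11 and gdf15. Its receptor genes were tgfbr1a, tgfbr1b, acvr1bb, bmpr1ab, acvr2ab and acvr2b, and the metalloprotease bmp1a completed it. The Tgf-beta type I receptor tgfbr1b was at 44.1, 37.6 and 47.4 CPM in embryos, 2.33, 0.962 and 1.70 CPM in ovaries and 6.46, 4.99 and 5.09 CPM in testes. In ovary against embryo, the gdf6a call was lost without any 1 of the 3 embryos, ovary replicate 2 or ovary replicate 3, at an adjusted p of 0.0596 to 0.133 (edgeR). The gdf15 call was lost without embryo replicate 1 or 3 or ovary replicate 1 or 3, at 0.067 to 0.104. In testis against embryo, the gdf15 call (adjusted p = 0.0413) was lost in each of the 6 refits that left out 1 library of either group, at 0.0547 to 0.125. It was also lost with RLE scaling, no filter, DESeq2 or the replicate block, at 0.0582 to 0.0785. The bmp4 call was lost without embryo replicate 2, at 0.057.

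A smaller set of ligands was higher in a gonad than in the embryo. The gene gdf3 encodes the zebrafish Vg1 protein, which is supplied by the mother and acts together with Nodal ligands, and it was at 1185, 489 and 826 CPM in ovaries, 25.3, 18.0 and 17.4 CPM in embryos and 5.38, 5.54 and 5.80 CPM in testes. Its log2 fold change was 5.37 (SE 0.34, adjusted p = 2.37e-07, edgeR) in ovary against embryo and -1.86 (adjusted p = 0.000286) in testis against embryo. The Nodal gene ndr1, also called squint, whose RNA is also laid down in the oocyte, was at 5.43, 2.95 and 1.08 CPM in ovaries, 5.99, 6.32 and 5.92 CPM in testes and 0.155, 0.133 and 0.0661 CPM in embryos of this stage. Both gonads were above the embryo, with log2 fold changes of 4.68 (SE 0.68, adjusted p = 0.000108, edgeR) and 5.62 (SE 0.68, adjusted p = 3.3e-05). The other Nodal gene matched by symbol, ndr2 or cyclops, held at most 0.517 CPM in any of these libraries and was not tested. The Nodal-related gene spaw, which the symbol rule did not match, was at 1.17, 1.59 and 1.26 CPM in wild-type embryos. The activin beta A gene inhbab was at 18.8, 10.2 and 29.1 CPM in testes, 0.129, 0.0687 and 0.154 CPM in ovaries and 0.155, 0.332 and 0.198 CPM in embryos. Only the testis comparison passed, with a log2 fold change of 6.35 (SE 0.54, adjusted p = 2.41e-06, edgeR) against the embryo. The activin beta B gene inhbb was at 23.9, 23.5 and 20.2 CPM in embryos, 17.4, 18.9 and 17.3 CPM in testes and 1.29, 3.64 and 0.849 CPM in ovaries. In all, the ovary was above both other tissues for 5 of 48 genes, bmp1b, bmp6, gdf3, tgfbr2 and tgfbrap1, which is 10.4% beside 20.7% of all genes. The testis was above both for 6 of 48, bmp8a, bmp10, bmpr2a, inhbab, tgfb1b and tgfbr3, which is 12.5% beside 21% of all genes. These shares are a description and were not tested. The bmp6 call in ovary against embryo was lost without any 1 of the 3 embryos, at an adjusted p of 0.0777 to 0.0927 (edgeR), or without ovary replicate 1, at 0.206. Without that ovary its log2 fold change was 0.55. The bmp8a call in testis against embryo was lost without testis replicate 3, at 0.0548.

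**Figure D1:**
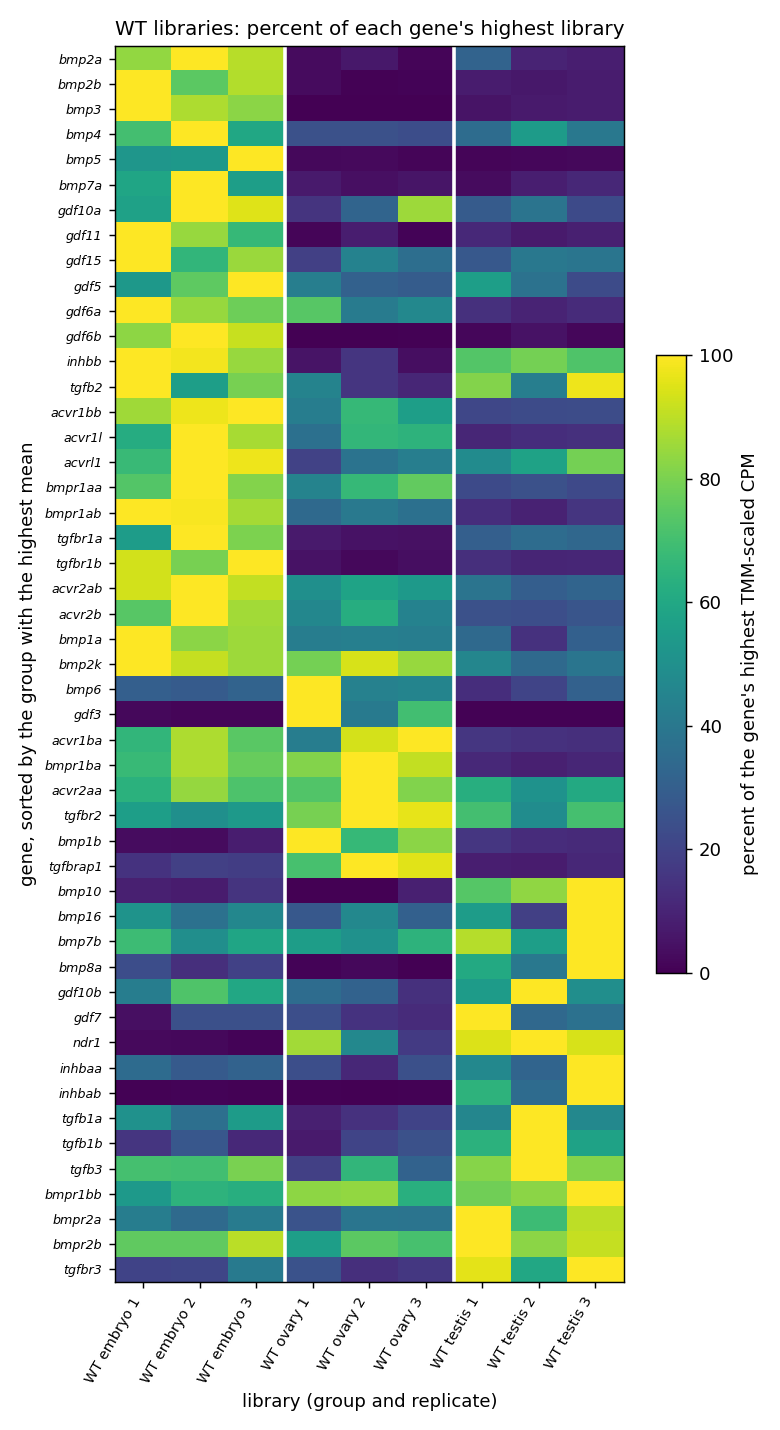
Levels of the 49 genes tested across the 9 wild-type libraries, with 1 row per gene and 1 column per library; the colour gives the level as a percent of that gene's highest library on the TMM-scaled CPM scale. The bright cells, which mark the highest levels, lie in the embryo columns for bmp2b, bmp3 and bmp7a, in the ovary columns for gdf3 and in the testis columns for inhbab.

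Between testis and ovary of wild-type adults, activin beta subunits, Tgf-beta ligands and 5 BMP ligands were higher in the testis, while gdf3, gdf6a, bmp6 and 6 of 10 type I receptors were higher in the ovary. Of 49 genes tested on the gonad scale, 33 differed, 18 higher and 15 lower in the testis (edgeR, Benjamini-Hochberg adjusted p under 0.05). That is 67.3% of the family, near the 70.5% of all genes that differed, 41.6% higher and 28.9% lower. The family's median log2 fold change was 0.53, beside 0.72 over all genes, and 39 of the 49 genes had testis and ovary libraries that did not overlap, which is 79.6% beside 76.4% of all genes. The number of calls was 27 to 33 when 1 library at a time was left out.

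All 3 activin and inhibin beta genes passed the test and were higher in the testis, with a median log2 fold change of 3.21. These subunits pair with each other to form activin, or with the alpha subunit to form inhibin. For inhbab the testes stood at 20.0, 10.8 and 31.1 CPM on the gonad scale and the ovaries at 0.136, 0.0731 and 0.163 CPM, without overlap. The difference was 159-fold (log2 fold change 7.31, SE 0.97, adjusted p = 3.35e-05, edgeR). The ovary libraries held only 2, 1 and 2 counts of inhbab, so the size of this fold is uncertain. For inhbb the testes stood at 18.6, 20.0 and 18.5 CPM and the ovaries at 1.36, 3.87 and 0.896 CPM, again without overlap, a 9.26-fold difference (log2 3.21, SE 0.51, adjusted p = 0.000139). For inhbaa, the paralogue of inhbab, the testes at 7.89, 5.43 and 16.9 CPM also lay above the ovaries at 4.02, 1.90 and 4.07 CPM (log2 1.60, SE 0.55, adjusted p = 0.0211). That call was lost without ovary replicate 2, at 0.0799, or testis replicate 3, at 0.132.

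The 4 Tgf-beta ligand genes were also all higher in the testis, with a median log2 fold change of 1.87. For tgfb1a the testes stood at 3.53, 7.66 and 3.61 CPM and the ovaries at 0.682, 1.096 and 1.55 CPM, and for tgfb1b the testes stood at 5.55, 8.58 and 4.99 CPM and the ovaries at 0.614, 1.75 and 2.12 CPM. Neither pair of groups overlapped, and the log2 fold changes were 2.15 (SE 0.47, adjusted p = 0.00134, edgeR) and 2.09 (SE 0.51, adjusted p = 0.00309). For tgfb3 the testes at 20.6, 25.1 and 20.5 CPM lay above the ovaries at 4.70, 16.6 and 7.90 CPM (log2 1.18, SE 0.38, adjusted p = 0.0152), a call that was lost without ovary replicate 3, at 0.0561. For tgfb2 the testes at 6.15, 3.20 and 7.36 CPM overlapped the ovaries at 3.34, 1.17 and 0.814 CPM (log2 1.64, SE 0.55, adjusted p = 0.0186). This call was lost without ovary replicate 2, ovary replicate 3 or testis replicate 3, at an adjusted p of 0.0669 to 0.07.

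Of the 10 BMP ligand genes tested, 5 were higher and 1 was lower in the testis. For bmp8a, whose mouse counterparts maintain male germ cells, the testes stood at 4.45, 2.91 and 7.36 CPM and the ovaries at 0.0682, 0.146 and 0 CPM. The ovaries held 3 counts of bmp8a in all against 322 in the testes, a ratio of 67.2 with a 95% counting interval of 22.8 to 328 that covers counting error only. For bmp10, a heart ligand that signals through Acvrl1, 1 count in the ovaries stood against 52 in the testes, a ratio of 32.6 with an interval of 5.59 to 1311. For bmp3 the testes at 5.41, 7.42 and 7.89 CPM lay above the ovaries at 0.273, 0.365 and 0.244 CPM, a 22.9-fold difference (log2 4.52, SE 0.53, adjusted p = 1.23e-05, edgeR). For bmp2b the testes at 1.51, 1.31 and 1.52 CPM lay above the ovaries at 0.545, 0.146 and 0.163 CPM (log2 2.29, SE 0.66, adjusted p = 0.00793). The paralogue bmp2a had a log2 fold change of 2.21 (SE 0.84, adjusted p = 0.0329), which was lost without ovary replicate 1 at 0.0898, ovary replicate 3 at 0.106 or testis replicate 1 at 0.187. The ovary held more of bmp6, known from mammals as the ligand that sets hepcidin levels, at 26.4, 11.7 and 11.9 CPM against 3.53, 5.38 and 8.25 CPM (log2 -1.54, SE 0.43, adjusted p = 0.00659). For bmp4 the groups at 23.2, 35.7 and 26.2 CPM in testis and 16.2, 16.3 and 15.3 CPM in ovary did not overlap, and the test was not passed (log2 0.83, adjusted p = 0.0946). The bmp7a libraries overlapped (log2 0.42, adjusted p = 0.483).

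Of the 10 GDF genes 2 were higher in the testis and 2 in the ovary. The ovaries stood at 1250.0, 520.5 and 871 CPM of gdf3 and the testes at 5.73, 5.87 and 6.20 CPM, a 148-fold difference with no overlap (log2 -7.21, SE 0.42, adjusted p = 4.9e-08, edgeR). For gdf6a, a GDF that patterns the dorsal retina in zebrafish, the ovaries at 24.9, 14.1 and 15.7 CPM lay above the testes at 4.77, 3.34 and 4.19 CPM (log2 -2.15, SE 0.34, adjusted p = 0.000149). Its paralogue gdf6b went the other way, with 31 counts in the testes and 1 in the ovaries, a ratio of 19.4 with an interval of 3.24 to 791. The fourth gene, gdf7, was higher in the testis (log2 1.74, adjusted p = 0.019), a call lost without ovary replicate 2 at 0.0583, ovary replicate 3 at 0.0634 or testis replicate 1 at 0.126. The Nodal gene ndr1 did not pass with edgeR (log2 0.95, adjusted p = 0.0834), but passed without ovary replicate 1, at 0.00973. With all libraries it passed with DESeq2 (adjusted p = 0.0496) and with limma (adjusted p = 0.0328).

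Of the 10 type I receptor genes 6 were lower and 2 higher in the testis, with a median log2 fold change of -1.36. The BMP receptor bmpr1ba was at 87.3, 108 and 97.4 CPM in ovaries and 12.4, 9.45 and 11.8 CPM in testes, an 8.71-fold difference without overlap (log2 -3.12, SE 0.22, adjusted p = 2.32e-07, edgeR). Its paralogue bmpr1bb was at 30.6, 31.1 and 23.2 CPM in ovaries and 29.1, 30.6 and 37.3 CPM in testes, which overlapped, with a log2 fold change of 0.19. The activin and Nodal receptor acvr1ba was at 61.8, 137 and 145 CPM in ovaries and 23.0, 20.9 and 20.1 CPM in testes (log2 -2.43, SE 0.31, adjusted p = 2.58e-05). The zebrafish BMP receptor acvr1l, also called Alk8, was at 71.8, 130.2 and 126 CPM in ovaries and 20.9, 25.9 and 27.1 CPM in testes (log2 -2.15, SE 0.26, adjusted p = 1.45e-05). The libraries of both genes were apart. The BMP receptors bmpr1aa (log2 -1.43) and bmpr1ab (log2 -1.54) and the activin receptor acvr1bb (log2 -1.29) were lower in the testis as well. The Tgf-beta receptors tgfbr1a and tgfbr1b were the 2 that were higher in the testis. For tgfbr1a the testes stood at 6.60, 7.66 and 7.31 CPM and the ovaries at 1.57, 1.096 and 0.977 CPM (log2 2.56, SE 0.46, adjusted p = 0.000356), and for tgfbr1b the testes stood at 6.88, 5.28 and 5.44 CPM and the ovaries at 2.45, 1.02 and 1.79 CPM (log2 1.73, SE 0.53, adjusted p = 0.0112).

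Among the 6 type II receptor genes, which hold the constitutively active kinase of the complex, 1 was higher and 3 were lower in the testis. The BMP receptor bmpr2a was at 41.5, 28.3 and 37.4 CPM in testes and 10.4, 16.2 and 15.9 CPM in ovaries (log2 1.34, SE 0.31, adjusted p = 0.00233, edgeR). Activin receptor acvr2b (log2 -1.02, adjusted p = 0.00296) was higher in the ovary. So were acvr2ab (log2 -0.67, adjusted p = 0.0264) and the Tgf-beta receptor tgfbr2 (log2 -0.53, adjusted p = 0.0366), each with calls that were lost when single libraries were left out. For acvr2ab these were ovary replicates 2 and 3 (0.0737 and 0.0546) and testis replicates 2 and 3 (0.0873 and 0.0691), and for tgfbr2 they were ovary replicates 2 and 3 (0.103 and 0.0895) and testis replicate 2 (0.151). The coreceptor tgfbr3, or betaglycan, presents Tgf-beta ligands and inhibin to their receptors and was at 12.6, 7.80 and 13.2 CPM in testes and 3.27, 1.75 and 2.12 CPM in ovaries. Its groups were apart (log2 2.23, SE 0.42, adjusted p = 0.000551). Of the 4 genes matched only by their symbol, tgfbrap1 was at 68.6, 97.6 and 92.3 CPM in ovaries and 8.30, 7.51 and 10.9 CPM in testes, a 9.68-fold difference (log2 -3.27, SE 0.28, adjusted p = 9.61e-07). The procollagen protease gene bmp1b was at 45.1, 30.5 and 37.2 CPM in ovaries and 7.20, 5.77 and 5.44 CPM in testes (log2 -2.61, SE 0.34, adjusted p = 2.88e-05), and bmp2k was also lower in the testis (log2 -1.11, adjusted p = 0.00147).

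**Figure D2:**
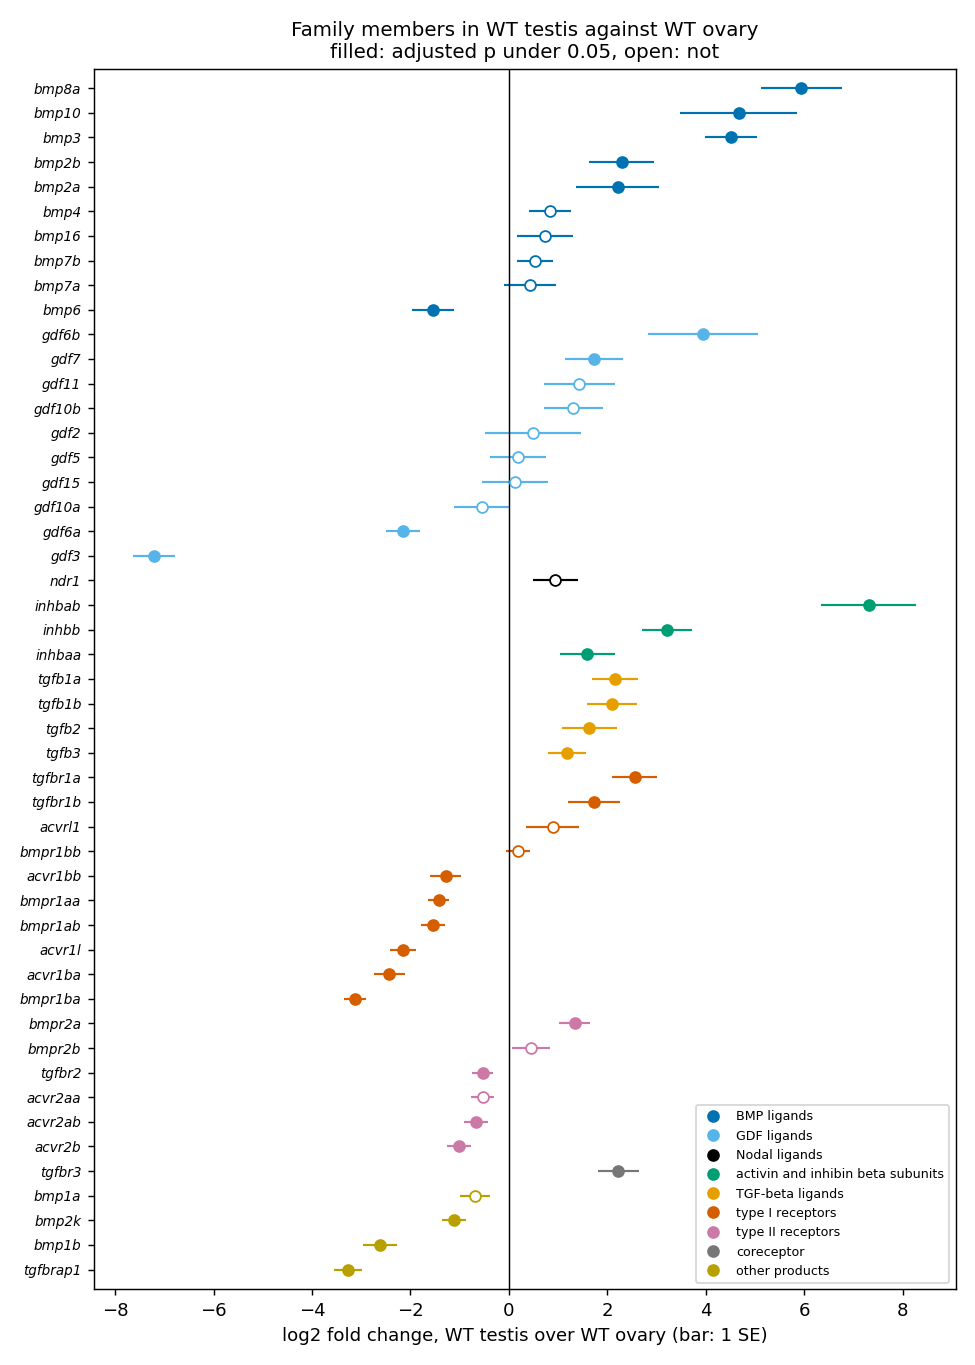
Log2 fold change of wild-type testis against wild-type ovary for each gene tested, grouped by role, with bars for the standard error and filled points for genes past an adjusted p of 0.05 (edgeR, n = 3 libraries a group). The activin beta and Tgf-beta ligand genes lie above 0, and most type I receptor genes lie below 0. The type I receptor genes above 0 are tgfbr1a and tgfbr1b, which passed, and bmpr1bb and acvrl1, which did not. The values of bmp8a, bmp10 and gdf6b rest on 1 to 3 counts in the ovary, and that of inhbab on 2, 1 and 2 counts in the ovary libraries.

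Of the duplicated genes matched by symbol, 13 pairs were compared, among them the metalloproteases bmp1a and bmp1b. In 6 pairs both copies passed the test between testis and ovary in the same direction. Of all genes 70.5% passed that test, 41.6% higher and 28.9% lower in the testis. The share over other gene pairs was not computed, so these counts are a description only. In 1 pair both passed in opposite directions, namely gdf6a (log2 -2.15) and gdf6b (log2 3.95, a value that rests on 1 count in the ovary). In 4 pairs 1 copy passed, as with bmpr1ba and not bmpr1bb, and in 2 pairs neither did, those of bmp7 and gdf10. Quantification against transcripts can split reads between near-identical copies, and the part of this in these pairs was not tested.

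The deposited transcript table allowed a look at single transcripts where a gene's matched transcripts added up to its gene count, which was the case with 2 or more transcripts in 7 genes. Of 15 transcripts of these genes that were tested, 8 (53.3%) differed between wild-type testis and ovary (edgeR, Benjamini-Hochberg over 39724 transcripts, of which 49.8% differed). The number was 5 without testis replicate 1 and 5 to 7 over all refits that left out 1 library. For bmp2k, a kinase induced by BMP2 in mouse cells, 1 transcript made up 77.4% to 84.7% of the gene's counts in the ovary libraries and 42.2% to 54.9% in the testis libraries. That transcript was lower in the testis (log2 -1.62, adjusted p = 0.000171). Another made up 0.774% to 2.26% in ovary and 9.33% to 22.5% in testis and was higher in the testis (log2 2.55, adjusted p = 0.0094), while a further one had a log2 fold change of 0.06 (adjusted p = 0.907). Both transcripts of bmpr2a were higher in the testis, and both of bmpr1aa were lower. The test was of each transcript's level, and the shares themselves were not tested.

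Other genes of the pathway were taken from fixed lists. Of 9 Smad genes, 7 differed between wild-type testis and ovary, 5 higher and 2 lower in the testis. As for the lists that follow, these counts stand beside 41.6% of all genes higher and 28.9% lower in the testis. The 2 lower ones were smad2, at a mean of 31.1 CPM in testes and 221 CPM in ovaries (log2 -2.83, SE 0.46, adjusted p = 0.000176, edgeR), and smad5, at 61.3 and 234 CPM (log2 -1.93, adjusted p = 3.51e-05). The other Smads of BMP signalling, smad1 at 17.2 and 2.76 CPM (log2 2.64) and smad9 at 13.4 and 2.91 CPM (log2 2.20), were higher in the testis, unlike smad5. Of 23 extracellular antagonists and modulators 12 were higher and 3 lower. The activin-binding follistatin gene fstb was at 48.5 CPM in testes and 0.167 CPM in ovaries (log2 8.09, adjusted p = 6.76e-06). The other follistatin gene, fsta, was at 14.8 and 1.38 CPM (log2 3.42), and the BMP antagonist chrdl2 at 10.7 and 0.652 CPM (log2 4.02). The modulator twsg1b, at 1.41 and 41.2 CPM (log2 -4.86), and the Nodal coreceptor tdgf1, at 4.04 and 54.6 CPM (log2 -3.75), were higher in the ovary. Of 6 other ligands of the superfamily 5 were higher in the testis, among them gsdf, expressed by somatic cells of the fish gonad, at 867 and 28.3 CPM, amh at 284 and 4.19 CPM, and the inhibin alpha gene inha at 147 and 39.5 CPM. BMP target genes went both ways, 10 of 20 higher and 3 lower in the testis, with id1 higher (log2 1.104) and id2a (log2 -4.78) and id3 (log2 -2.10) lower. The id1 call was lost without ovary replicate 1, at an adjusted p of 0.0797 (edgeR), or testis replicate 3, at 0.072. The Nodal effector foxh1, supplied by the mother to the zebrafish egg, was at 1.34 CPM in testes and 154 CPM in ovaries (log2 -6.84).

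In kctd15 mutant ovaries 1 gene of the family, gdf10b, was higher than in wild-type ovaries, and no gene of the family passed the test in mutant testes. In the ovary comparison 1 of 49 genes passed, beside 0.553% of all genes, 0.348% higher and 0.205% lower (edgeR, Benjamini-Hochberg adjusted p under 0.05). The family's median log2 fold change was 0.03, beside 0.05 over all genes, with 26 genes above 0 and 23 below. In 9 of the 49 genes the libraries did not overlap, which is 18.4% beside 15.3% of all genes. The mutants were higher without overlap in 7 of the 49 genes, beside 8.16% of all genes. Without mutant replicate 3, 0 of 49 genes passed, beside 0.484% of all genes, and 8 had an unadjusted p under 0.05, beside 13.2% of all genes (edgeR). The median was then 0.03, beside 0.00 over all genes, and 15 genes did not overlap, which is 30.6% beside 29% of all genes. The mutants were then higher without overlap in 8 of the 49 genes, beside 14.8% of all genes.

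The gene gdf10b encodes a ligand related to Bmp3. Its level was 0.409, 0.365 and 0.163 CPM on the gonad scale in wild-type ovaries and 1.33, 4.23 and 2.60 CPM in mutant ovaries. Every mutant library was above every wild-type library, and the difference was 8.49-fold (log2 3.09, SE 0.61, adjusted p = 0.0491, edgeR). The wild-type ovary libraries held only 6, 5 and 2 counts of gdf10b, so the size of this fold is uncertain. The call was lost in 5 of 6 refits that left out 1 library, with an adjusted p of 0.0794, 0.145 and 0.149 without wild-type replicates 1, 2 and 3, and of 0.0885 and 0.0699 without mutant replicates 2 and 3. Without mutant replicate 3, which held the liver and gut markers, the log2 fold change was 3.11. Over all alternatives the adjusted p ran from 0.000704 with DESeq2 to 0.172 with only the ovary groups in the fit. Testis markers, 7 genes of which none was at 0, summed to 75.0 to 106 CPM in mutant ovaries and 40.6 to 47.3 CPM in wild-type ovaries. The difference came from spata18, at 49.8, 80.0 and 45.9 CPM in mutants and 13.3, 5.33 and 3.66 CPM in wild type. Wild-type testes held 22.4, 22.2 and 32.8 CPM of spata18, less than the mutant ovaries, so its level does not mark testis here. The other 6 markers summed to 25.2 to 31.2 CPM in mutants and 28.5 to 41.9 CPM in wild type. Most of that sum was gsdf, at means of 20.8 and 28.3 CPM. In the mutant ovaries amh and gsdf had lower means. Higher means there, at low levels, were those of tekt1 (1.30 and 0.702 CPM), odf3b (1.35 and 0.735), sycp3 (1.52 and 1.14) and dmrt1 (0.817 and 0.772). The part of these markers in the gdf10b result was not tested. In the testes gdf10b was at 0.642, 1.16 and 0.579 CPM in wild type and 1.39, 2.11 and 1.05 CPM in mutants.

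The other genes of the family did not pass in the ovary. The mutant ovaries held 8.32, 11.7 and 9.62 CPM of the Nodal gene ndr1 and the wild-type ovaries 5.73, 3.14 and 1.14 CPM, without overlap (2.95-fold, log2 1.56, SE 0.47, adjusted p = 0.17, edgeR). The value was 1.57 without mutant replicate 3, and DESeq2 gave an adjusted p of 0.0188 with all libraries. The mutant ovaries held 35.1, 34.2 and 28.9 CPM of gdf6a and the wild-type ovaries 24.9, 14.1 and 15.7 CPM, also without overlap (log2 0.84, SE 0.33, adjusted p = 0.263, and 0.92 with an adjusted p of 0.314 without mutant replicate 3). The levels of gdf6a in testes were 8.45, 7.82 and 4.11 CPM in mutants and 4.77, 3.34 and 4.19 CPM in wild type, which overlapped (log2 0.73, SE 0.33, adjusted p = 0.712). The protease gene bmp1b was at 70.0, 97.1 and 36.8 CPM in mutant and 45.1, 30.5 and 37.2 CPM in wild-type ovaries, with mutant replicate 3 inside the wild-type range. Its log2 fold change was 0.86 (adjusted p = 0.243) with that replicate and 1.14 (adjusted p = 0.0904) without it. The raised mean of inhbab in mutant ovaries came mostly from the same replicate, at 1.60 CPM, where the other mutants held 0.177 and 0.306 CPM. The log2 fold change of inhbab was 2.43 with that replicate (adjusted p = 0.275) and 0.97 without it (adjusted p = 0.713). For gdf11, a ligand of axial patterning, the mutant ovaries held 0, 0.0612 and 0.0764 CPM and the wild-type ovaries 0.136, 0.804 and 0.0814 CPM, levels too low for a fold change. These genes were picked out after their values were seen.

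In the testes 0 of 49 genes passed, beside 0.0696% of all genes, and 3 had an unadjusted p under 0.05, beside 7.01% of all genes (edgeR). In the family DESeq2 also made no call, and limma made 1, bmp8a. The family's median log2 fold change was -0.02, beside 0.07 over all genes. In 12 of the 49 genes the libraries did not overlap, which is 24.5% beside 15.8% of all genes. The mutants were higher without overlap in 6 of the 49 genes, beside 10.1% of all genes, and lower in 6 of the 49, beside 5.72%. For bmp8a the mutant testes stood at 13.6, 15.1 and 14.6 CPM and the wild-type testes at 4.45, 2.91 and 7.36 CPM, with no overlap and little spread in the mutants (2.94-fold, log2 1.56, SE 0.57, adjusted p = 0.539 with edgeR and 0.0374 with limma). For bmp7a the mutants at 6.39, 7.05 and 9.43 CPM lay above the wild type at 0.917, 2.76 and 3.61 CPM (3.13-fold, log2 1.65, SE 0.52, adjusted p = 0.448). For tgfbr3 the mutants at 6.53, 3.69 and 3.99 CPM lay below the wild type at 12.6, 7.80 and 13.2 CPM (log2 -1.24, SE 0.41, adjusted p = 0.467). The corresponding ovaries held bmp7a at 1.86, 0.919 and 2.67 CPM in mutants and 2.32, 1.32 and 1.79 CPM in wild type. They held tgfbr3 at 3.81, 2.20 and 2.06 CPM in mutants and 3.27, 1.75 and 2.12 CPM in wild type, so both genes overlapped between the ovary groups. Markers moved with the testis groups as well. The testis markers went both ways. In mutant and wild-type testes amh was at 132, 97.7 and 101 CPM and 353, 185 and 315 CPM. The ranges of gsdf were 421 to 446 and 621 to 1027 CPM, and the mean of dmrt1 was also lower in mutants (155 and 179 CPM). Higher in mutants without overlap were sycp3, at 374, 443 and 327 against 247, 238 and 282 CPM, and spata18, at 38.0, 48.2 and 41.8 against 22.4, 22.2 and 32.8 CPM. The means of tekt1 (356 and 326 CPM) and odf3b (315 and 271 CPM) were higher in mutants as well. The 3 leukocyte markers, none at 0, summed to 9.84 to 15.9 CPM in mutants and 19.1 to 77.7 CPM in wild type. Of them only ptprc was apart, at 6.17 to 8.14 and 14.6 to 37.5 CPM, while lcp1 and mpx overlapped. Liver markers, 4 genes with none at 0, summed to 10.3 to 118 CPM in mutants and 70.7 to 690 CPM in wild type, which overlapped. The part of these in the bmp8a, bmp7a and tgfbr3 values was not tested.

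The test of a difference between the mutant effect in testis and that in ovary called 0 of 49 genes, beside 0.0812% of all genes, with 9 at an unadjusted p under 0.05, beside 10.9% of all genes (edgeR). DESeq2 and limma also called no gene of the family. The smallest p values among genes above 1 CPM included those of bmp1b (difference of log2 effects -1.45, SE 0.46, adjusted p = 0.325), inhbab (-3.40, SE 1.19, adjusted p = 0.362) and gdf10b (-2.16, SE 0.81, adjusted p = 0.38). Without mutant ovary replicate 3 these differences were -1.75, -1.95 and -2.20. The mutant effects on the family are therefore not shown to differ between the gonads. Of the Smads, antagonists, other ligands and target genes on the lists, none passed the test in either mutant gonad.

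**Figure D3:**
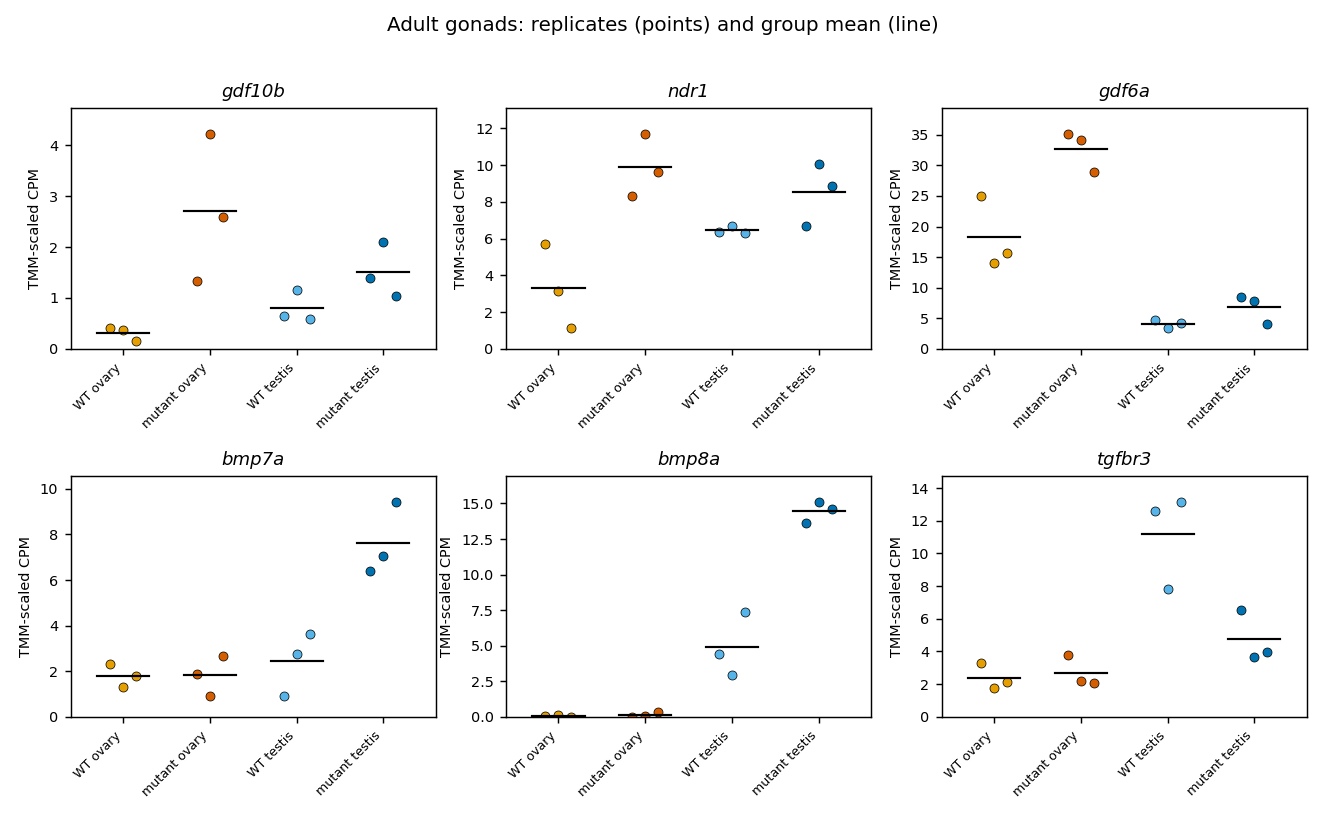
Level of 6 genes in each gonad library, in TMM-scaled CPM of the gonad fit, with 1 point per library and a line at the mean of 3. Mutant ovaries lie above wild-type ovaries for gdf10b, ndr1 and gdf6a, and mutant testes lie above wild-type testes for bmp7a and bmp8a and below them for tgfbr3; of these only gdf10b in the ovary passed the test.

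In embryos the group means of most genes of the family differed by less than 1.5 times. Of 45 genes tested, the highest of the 7 group means was less than 1.5 times the lowest in 33, 1.5 to 2 times in 8, and 2 times or more in 4. The 4 were gdf10b with a ratio of 5.01, bmp5 with 3.31, tgfb1a with 2.54 and bmp3 with 2.34. The shares over all genes were not computed, so these counts are a description only. The gdf10b ratio rests on few counts, with a lowest group mean of 0.120 CPM in mutants and 146 counts over all 21 libraries. The remaining 6 genes were not tested in embryos because they were nearly absent at this stage, with 6 to 123 counts over all 21 libraries. The Nodal genes matched by symbol were among them, with 25 counts of ndr1 and 31 of ndr2, as were bmp10, gdf2, gdf7 and inhbab. A test for any difference among the 7 groups called 1 of 45 genes, bmp3, beside 2.16% of all genes (adjusted p = 0.0124, edgeR). That call held in 19 of 21 refits that left out 1 library and was lost without mutant replicate 1, at 0.0922, or mutant replicate 2, at 0.0813. With the replicate number as a block, 4 of 45 genes passed this test, bmp3, gdf6a, gdf6b and inhbb, beside 7.86% of all genes.

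The bmp3 level lay above that of uninjected embryos in mutants and below it with kctd15. Neither pairwise test passed in edgeR without the replicate block, and with it only the mutant comparison passed. Uninjected embryos stood at 81.9, 71.7 and 67.9 CPM on the embryo scale, mutants at 126, 111 and 89.4 CPM, and kctd15-injected embryos at 56.9, 40.3 and 48.2 CPM. Neither group overlapped the uninjected embryos. Embryos with AP2 and kctd15 stood at 51.2, 36.7 and 51.6 CPM, embryos with AP2 alone at 71.4, 54.9 and 69.2 CPM, embryos with AP2-P59 at 71.6, 47.6 and 60.3 CPM, and embryos with AP2-P59 and kctd15 at 81.0, 47.2 and 64.3 CPM. The AP2 groups with and without kctd15 were apart, and the AP2-P59 groups overlapped.

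In mutant embryos 1 of 45 genes passed the test, gdf6b, beside 4.09% of all genes, 1.36% higher and 2.73% lower (edgeR, Benjamini-Hochberg adjusted p under 0.05). The family's median log2 fold change was -0.01, as over all genes, with 22 genes above 0 and 23 below. In 11 genes the mutant and uninjected libraries did not overlap, which is 24.4% beside 26.3% of all genes. The gene gdf6b, the paralogue of the dorsal retina gene gdf6a, was at 11.1, 13.4 and 12.3 CPM in uninjected embryos and 5.75, 8.75 and 8.74 CPM in mutants. The groups were apart and gdf6b was 1.59-fold lower in mutants (log2 -0.67, SE 0.17, adjusted p = 0.0365). The 15 libraries of injected embryos were all above the mutants, from 10.0 CPM with AP2-P59 to 15.6 CPM with kctd15. The gdf6b call was lost in 5 of 6 refits that left out 1 library, at 0.128 and 0.105 without wild-type replicates 2 and 3 and at 0.137, 0.0644 and 0.0703 without mutant replicates 1, 2 and 3. With the replicate number as a block, since same-numbered embryo samples deviated together, 4 genes passed: gdf6b (adjusted p = 0.00402), bmp3 (0.00768), bmpr2a (0.0206) and inhbb (0.0377). The block raised the number of calls over all genes from 912 to 2931, which is 13.1%.

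The 3 genes that passed only with the block had a log2 fold change of 0.56 for bmp3 (SE 0.20, adjusted p = 0.123 without the block, 1.48-fold), -0.51 for bmpr2a (SE 0.15, adjusted p = 0.061) and 0.36 for inhbb (SE 0.13, adjusted p = 0.124) in edgeR. The type II receptor gene bmpr2a was at 14.0, 11.4 and 13.7 CPM in uninjected embryos and 10.6, 8.63 and 8.20 CPM in mutants, and DESeq2 gave an adjusted p of 0.0237. The activin beta B gene inhbb was at 20.2, 19.8 and 17.1 CPM in uninjected embryos and 25.2, 24.04 and 24.02 CPM in mutants. None of the 3 had overlapping groups. Among the 11 genes whose groups were apart were 4 more that did not pass. The mutants held 29.6, 29.1 and 27.9 CPM of gdf6a against 27.1, 22.8 and 21.1 CPM in uninjected embryos (log2 0.29, adjusted p = 0.339). They held 6.92, 8.75 and 10.3 CPM of bmp6 against 6.46, 6.05 and 6.74 CPM (log2 0.43, adjusted p = 0.18). The mutants held 2.17, 2.20 and 1.65 CPM of gdf15, known in mammals as a stress-induced ligand, against 1.45, 0.952 and 1.23 CPM (log2 0.73, adjusted p = 0.254). They held 0, 0.184 and 0.177 CPM of gdf10b against 0.395, 0.672 and 0.561 CPM (adjusted p = 0.135). The ventral BMP genes bmp2b (log2 0.25, adjusted p = 0.6), bmp4 (log2 -0.30, adjusted p = 0.646) and bmp7a (log2 -0.35, adjusted p = 0.459) overlapped between the groups.

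**Figure D4:**
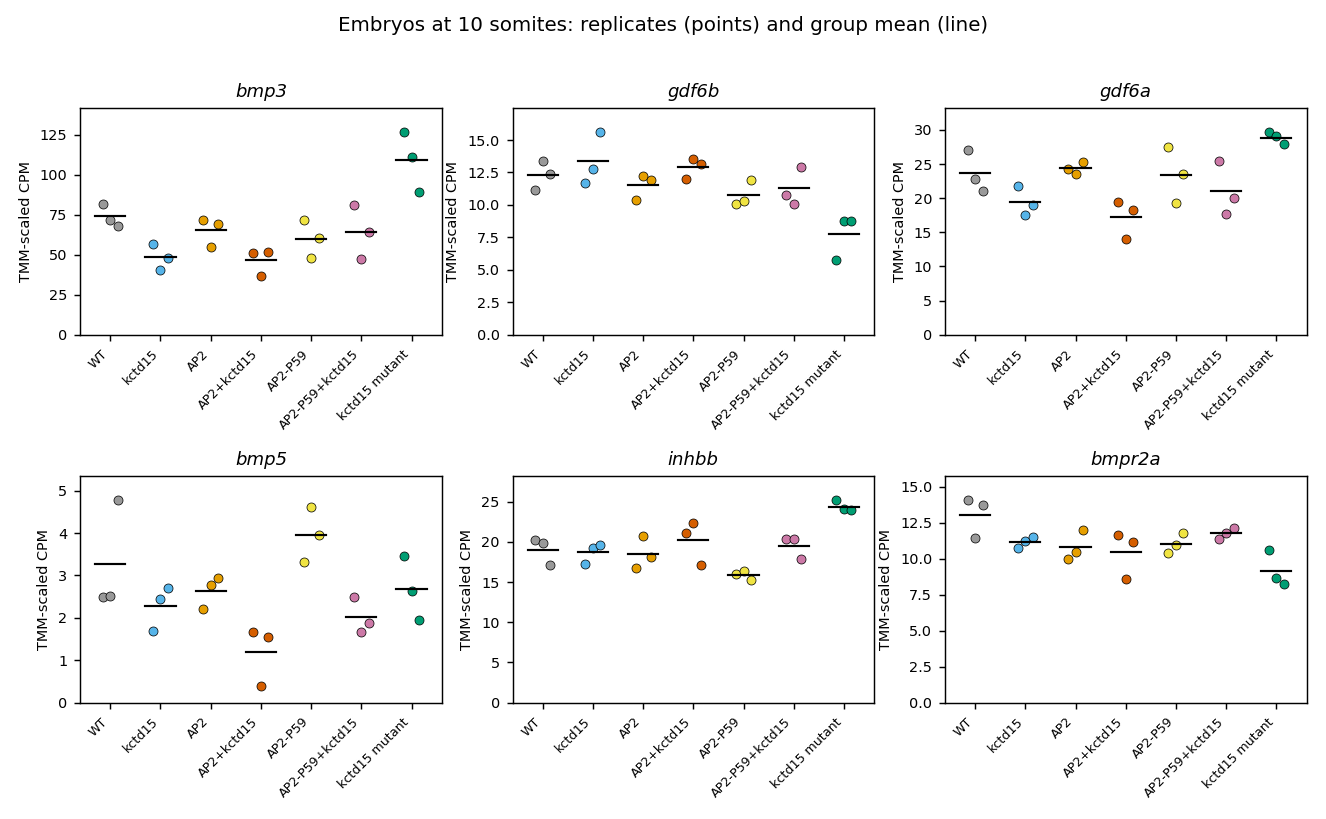
Level of 6 genes in each embryo library of the 7 groups, in TMM-scaled CPM of the embryo fit, with 1 point per library and a line at the mean of 3. Mutant embryos are the highest group for bmp3 and inhbb and the lowest for gdf6b, and embryos with AP2 and kctd15 are the lowest group for bmp5 and gdf6a.

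Injection of kctd15 alone left no gene of the family past the threshold. Of 45 genes 0 passed, as did 0% of all genes, with 4 genes of the family and 3.42% of all genes at an unadjusted p under 0.05 (edgeR). DESeq2, limma and the fit with the replicate block also called no gene of the family. Over all genes the block called 12. With kctd15, 5 of the 45 genes were lower without overlap, beside 3.56% of all genes. In either direction the libraries did not overlap in 6 genes, which is 13.3% beside 7.77% of all genes. All 4 genes with the smallest p were among them, each with an adjusted p of 1.00. The BMP partner bmp7a was at 15.3, 26.0 and 14.6 CPM in uninjected embryos and 9.47, 11.98 and 10.9 CPM with kctd15 (log2 -0.79, SE 0.25). The log2 fold change of bmp3, whose values are given above, was -0.61 (SE 0.20). The activin beta A gene inhbaa was at 4.68, 3.81 and 4.21 CPM in uninjected embryos and 2.91, 2.26 and 1.99 CPM with kctd15 (log2 -0.83, SE 0.29). The gene bmp2a was at 4.61, 5.49 and 4.94 CPM and 8.01, 6.62 and 6.19 CPM (log2 0.47, SE 0.21).

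No gene of the family passed the test in embryos with AP2 or AP2-P59 against uninjected embryos. With AP2, 0 of 45 genes and 0% of all genes passed (edgeR; DESeq2, limma and the block also called no gene of the family), and 1 gene of the family had an unadjusted p under 0.05, beside 3.34% of all genes. It was the BMP type I receptor bmpr1bb, at 15.9, 19.0 and 18.6 CPM in uninjected embryos and 13.6, 8.11 and 14.7 CPM with AP2, without overlap (log2 -0.56, SE 0.22). With AP2-P59, 0 of 45 genes and 0% of all genes passed under edgeR, DESeq2 and limma made no call in the family, and 2 genes had an unadjusted p under 0.05, beside 5.38% of all genes. The Tgf-beta ligand tgfb1a was at 3.10, 2.24 and 3.37 CPM in uninjected embryos and 4.13, 4.24 and 7.79 CPM with AP2-P59 (log2 0.89, SE 0.38, adjusted p = 0.913). Its groups were apart, while those of the receptor bmpr1ba, at 58.0, 75.1 and 66.2 CPM and 40.3, 63.1 and 48.8 CPM, overlapped (log2 -0.39, SE 0.16, adjusted p = 0.888). Between AP2-P59 and AP2, 0 of 45 genes and 0% of all genes passed, and 0 genes of the family but 1.31% of all genes had an unadjusted p under 0.05 with edgeR. DESeq2, limma and the block called no gene of the family.

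Adding kctd15 to AP2 also gave 0 of 45 calls, beside 0.197% of all genes. With edgeR 3 genes of the family and 5.18% of all genes had an unadjusted p under 0.05. DESeq2, limma and the block made no call in the family. In 5 genes the libraries did not overlap, which is 11.1% beside 8.52% of all genes. All 5 were lower with kctd15, so 11.1% of the 45 genes were lower without overlap, beside 4.93% of all genes. The levels of gdf6a were 24.3, 23.5 and 25.3 CPM with AP2 and 19.4, 14.1 and 18.3 CPM with AP2 and kctd15 (log2 -0.50, SE 0.16, adjusted p = 0.512). For bmp5, which encodes a ligand close to Bmp7, they were 2.20, 2.78 and 2.94 CPM with AP2 and 1.67, 0.390 and 1.54 CPM with both (log2 -1.12, SE 0.40, adjusted p = 0.609). The log2 fold change of bmp3 was -0.49 (SE 0.20, adjusted p = 0.809). Adding kctd15 to AP2-P59 gave 0 of 45 calls and 0% of all genes. With edgeR 3 genes of the family and 4.06% of all genes had an unadjusted p under 0.05. DESeq2, limma and the block made no call in the family. Here bmp5 was at 3.33, 4.62 and 3.95 CPM with AP2-P59 and 2.49, 1.67 and 1.87 CPM with both, without overlap (log2 -0.98, SE 0.38). Its log2 fold change was -1.17 without replicate 1 of the double-injected group, which held no kctd15a transcript. For bmp3 the log2 fold change was 0.10 with that replicate and -0.11 without it. Without it the number of calls was again 0, and 2 genes of the family had an unadjusted p under 0.05, beside 5.31% of all genes (edgeR). The difference between the kctd15 effect with AP2 and with AP2-P59 passed for 0 of 45 genes, beside 0% of all genes, and at an unadjusted p under 0.05 for 1 of them, gdf5, and 2.49% of all genes. The gdf5 effects had a difference of -1.28 on the log2 scale (SE 0.56), and of -1.33 without that replicate. The effects are therefore not shown to differ. DESeq2, limma and the block called no gene of the family. For the difference between the kctd15 effect with AP2 and without it, each tool made 0 calls in the family, and edgeR put 0 genes of the family but 2.92% of all genes under an unadjusted p of 0.05.

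When the kctd15 effects alone, on AP2 and on AP2-P59 were averaged, 0 of 45 genes passed the threshold, beside 0.525% of all genes, and 4 had an unadjusted p under 0.05, beside 5.53% of all genes (edgeR). In the family the limma fit made no call either, and DESeq2 called bmp5 (adjusted p = 0.0121). The fit with the replicate block called bmp3 (0.0199), bmp5 (0.0496) and gdf6a (0.0193), beside 1.34% of all genes. Without the block the log2 effects were -0.87 for bmp5 (SE 0.22, adjusted p = 0.108), -0.31 for gdf6a (SE 0.09, adjusted p = 0.274), -0.33 for bmp3 (SE 0.12, adjusted p = 0.487) and -0.39 for bmp7a (SE 0.14, adjusted p = 0.55). Without the library that held no kctd15a transcript they were -0.94, -0.37, -0.40 and -0.46, with adjusted p of 0.0967, 0.105, 0.189 and 0.32, and 0 of 45 genes passed, beside 0.677% of all genes. The family's median was -0.01, beside 0.01 over all genes, with 16 genes above 0 and 29 below. The mutant comparison and the kctd15-alone part of the average share the uninjected embryos, while the other parts use AP2 and AP2-P59 embryos. Side by side, the mutant and averaged kctd15 log2 values were 0.56 and -0.33 for bmp3 and 0.29 and -0.31 for gdf6a. For bmp7a both values lay below 0, so the signs were not opposite in every gene named here.

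**Figure D5:**
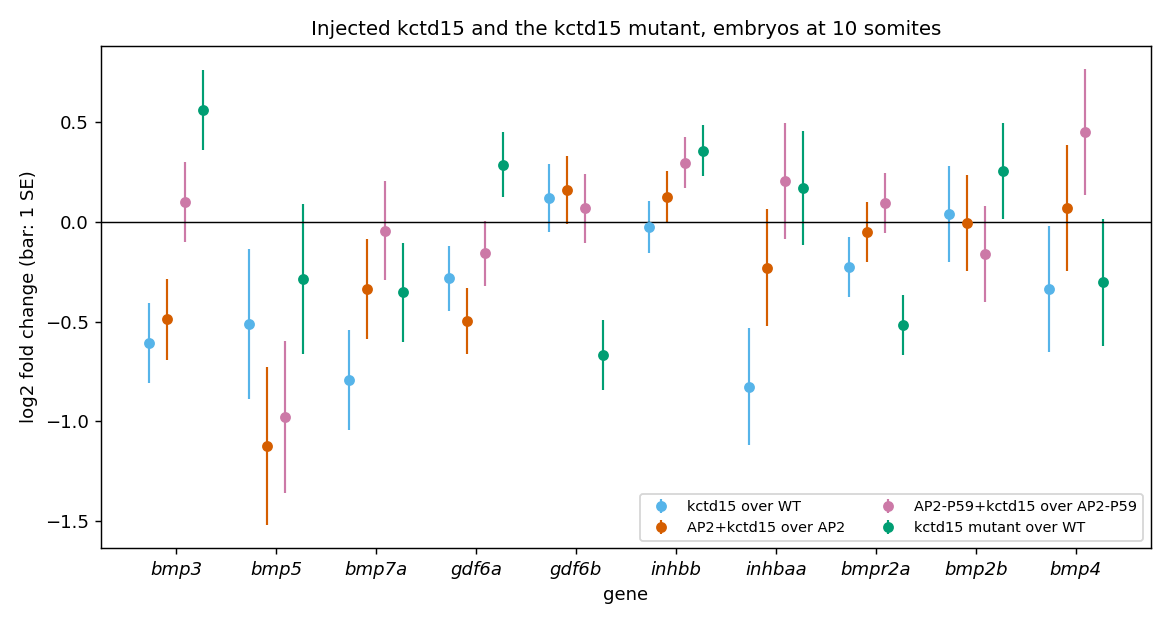
Log2 fold change of 10 genes in mutant embryos against uninjected embryos and for kctd15 added to no AP2, to AP2 and to AP2-P59, with bars for the standard error (edgeR, n = 3 libraries a group). The points of bmp3 lie above 0 in mutants and below 0 for kctd15 alone and with AP2, while bmp5 lies below 0 for kctd15 in each background.

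Of 20 BMP target genes 1 passed in mutant embryos, which is 5% beside 4.09% of all genes. It was id1, which was at 399.5, 463 and 413 CPM in uninjected embryos and 481, 669 and 776 CPM in mutants (log2 0.59, adjusted p = 0.0289, edgeR). The id1 call was lost without wild-type replicate 1 or 3 or mutant replicate 2 or 3, at an adjusted p of 0.0753 to 0.161, and with only these groups in the fit, at 0.086. The median of the list was 0.25, with 15 of 20 above 0, beside -0.01 over all genes. For the averaged kctd15 effect 0 of the 20 passed, beside 0.525% of all genes. With edgeR 1 had an unadjusted p under 0.05, beside 5.53% of all genes. The median of the list was there -0.11, beside 0.01 over all genes, with 17 of 20 below 0. The BMP target msx1a, a transcription factor of the neural plate border, was at 20.2, 17.8 and 17.5 CPM in uninjected embryos, 36.7, 27.8 and 31.2 CPM in mutants and 15.5, 12.03 and 9.78 CPM with kctd15. It passed the test for any difference among groups (adjusted p = 0.0149), a call lost without mutant replicate 1, at 0.106, replicate 2, at 0.0552, or replicate 3, at 0.0903. Of 9 Smad genes 0 passed in mutants (edgeR), and of 21 antagonists and modulators 1 (4.76%) passed, beside 4.09% of all genes. That gene was ltbp3. It encodes a protein that holds latent Tgf-beta in the matrix, and it was at 8.50, 9.19 and 11.4 CPM in uninjected embryos and 5.46, 4.28 and 3.60 CPM in mutants (log2 -1.12, adjusted p = 0.0432). That call was lost in each of the 6 refits that left out 1 library of either group, at an adjusted p of 0.0563 to 0.195. Sums of other markers also differed between mutant and uninjected embryos. The summed level of the 7 embryo tissue markers was 8480 to 11729 CPM in mutants, 6772 to 8168 CPM in uninjected embryos and 6334 to 6841 CPM with kctd15. The kctd15 libraries overlapped the uninjected ones. This sum spans several tissues and does not tell which of them differed. The summed level of the 3 leukocyte markers was 29.9 to 34.3 CPM in mutants and 11.7 to 19.5 CPM in uninjected embryos, where 1 of the 3 was at 0 in every library. Their part in the results on mutant and kctd15-injected embryos was not tested.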

How the data were processed

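Polyadenylated RNA of 33 zebrafish samples in 11 groups of 3 was measured. Per the submitters' processing notes, reads were trimmed with Trimmomatic 0.36 and quantified with kallisto 0.43.0 on GRCz10, and edgeR was used for normalization. Per the labels' protocols, libraries were stranded. The deposited gene and transcript tables hold estimated counts, which the authors left unscaled; the deposited normalized table was not used. Estimated counts were rounded to whole numbers. Quasi-likelihood fits (robust) were made in R 4.3.3 with edgeR 4.0.16 after TMM scaling and filterByExpr (minimum count 10, minimum total 15). Tests were two-sided, p-values were adjusted by Benjamini-Hochberg across each fit's genes, and 0.05 was the threshold. The 3 fits held 21 embryo libraries (22305 genes, biological coefficient of variation 0.241), 12 gonad libraries (25870 genes, 0.429) and 9 wild-type libraries (25039 genes, 0.336). The first also held 45 of the 51 genes, the others 49 each. SE is the log2 fold change divided by the square root of F. Spreads are between biological replicates as labelled, and the p-values measure only that spread.

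Named genes are every gene of the family that passed where a comparison has 12 or fewer, otherwise the 8 largest each way; the 4 with the smallest p where none passed; the best known members; and up to 4 of each pathway list. The members and lists were chosen with earlier results of these data known. Alternatives were RLE scaling, no filter, DESeq2 1.42.0, limma 3.58.1 on log2(CPM + 1), a replicate block, leaving out each library, fits of only the compared groups and, for the wild-type fit, scaling over all 33 libraries. The fits were tested on simulated data. Same-numbered embryo samples deviated from their group means together (lowest correlation over genes of a pair 0.117 for mutant against wild type and 0.191 for kctd15 against wild type). By a cutoff on this lowest value, the replicate numbers were taken to pair these samples. The main embryo fits did not include this pairing. Counts of calls with the replicate block are given beside the main ones where they changed. AP2-P59 against wild type (-0.0176), mutant against wild-type testis (0.0846) and the other gonad comparisons fell below the cutoff. It is not a sharp division, since the testis value lay close to 0.117. AP2 against wild type (0.197) and AP2-P59 against AP2 (0.226) both lay above the cutoff. The labels do not tie the numbers to a clutch or day. No sequences or genome positions are given, and the assembly of the gene names table differs from that of the files.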

Additional observations from a re-analysis of the deposited data

How the results depend on the processing

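Of 2291 values recomputed for 174 single-gene results, 2160 kept their direction and their side of the threshold, 106 lost the call, 19 gained it and 6 changed sign. The sign changes were all in testis against embryo and of genes that did not pass there: tgfb2 (log2 -0.09) came to 0.0185 with RLE scaling, 0.0183 with DESeq2, 0.0777 with only the compared groups and, with 1 library left out, to -0.339 to 0.184 (above 0 without embryo replicate 1 or testis replicate 2). With 1 library left out tgfb1a (log2 0.44) came to -0.0361 to 0.625 (below 0 without testis replicate 2). The counts of calls that moved by over 1.5 times were as follows. Mutant against wild-type embryos (1) gave 0 without the filter or with only the compared groups, 2 with DESeq2, and 0 to 1 with 1 library left out. Any difference among embryo groups (1) gave 5 with DESeq2 and 0 to 1 with 1 library left out. The averaged kctd15 effect (0) gave 1 with DESeq2. Mutant against wild-type ovary (1) gave 0 without the filter or with only the compared groups, 2 with DESeq2, and 0 to 1 with 1 library left out, and the mutant testis (0) gave 1 with limma. Transcripts (8) gave 5 to 7 with 1 library left out. With the replicate block as the pairing of the embryo samples, the counts became 4 in mutant embryos, 3 for the averaged kctd15 effect and 4 for any difference. The block changed no other count by over 1.5 times. With it bmp2a lost its call in testis against ovary (adjusted p = 0.0564, edgeR), a comparison below the cutoff for pairing. RLE scaling moved the median of all genes by 0.107 in testis against embryo, where 10 genes of the family were then higher and 23 lower. Depth limits what can be said of genes with few counts in a group.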
